A study of Rattus norvegicus with 60 samples.

Results

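The lungs of rats killed 1 week after the last day of an inhalation exposure to crystalline silica were set against lungs of air-breathing rats killed at the same time. Samples were taken by the post-exposure time in their labels, which gave 12 lungs, 8 of silica rats and 4 of air rats, of 60 lungs in the whole series. All were male CDF Fisher 344 rats of about 3 months. The silica rats had inhaled 5 daily exposures of 6 hours to crystalline silica at 15 mg/m3 and the controls only air, and further rats of both kinds were killed at later times up to 16 weeks. Total RNA of lung was hybridised to 1 Illumina bead array per rat, and no rat was sampled more than once. The tissue is whole lung, so a change can come from fewer or more cells of a type or from less or more RNA per cell, and these cannot be told apart here.

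Crystalline silica particles that reach the alveoli are taken up by alveolar macrophages and damage their lysosomes, which leads to release of interleukin-1 and of chemokines. ELR-positive CXC chemokines such as Cxcl1 draw neutrophils, and CC chemokines such as Ccl2 draw monocytes. Type II cells, which make surfactant, multiply and enlarge around silica deposits in rats, and lipid-rich surfactant material then accumulates in the alveoli. Many of the chemokine genes are targets of the transcription factor NF-kB.

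The first comparison was silica against air at 1 week. Among the largest rises, Cxcl6, a chemokine that attracts neutrophils, was 7.13-fold higher in silica lungs, Slc26a4, an anion exchanger of the airway epithelium, 4.53-fold, and Cd177, found on neutrophils, 4.17-fold. The signal fell less often and by less, with Nr1d1, a clock repressor, at 0.337 of the air level and Dlk1, a Notch-like surface protein, at 0.367. The size of some differences depended on the processing: with the authors' values the log2 difference was 1.38 for Cxcl6 (2.83 here) and -0.57 for Dlk1 (-1.45 here). Among 13881 genes tested with limma, 531 (3.83%) passed an adjusted p of 0.05, 372 of them higher in silica lungs (2.68%) and 159 lower (1.15%). The stricter rule, an adjusted p under 0.01 with at least a 1.5-fold difference, left 73 genes (0.526%), 67 higher and 6 lower. The count depended on the air rats: without air rat 3 it was 227 genes and without air rat 4 it was 250. Scaling arrays by their median in place of quantiles gave 141 genes, 109 higher and 32 lower.

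Changes were mostly small. The median log2 difference was 0.40 over the called genes that were higher and -0.32 over those that were lower, against -0.01 over all genes tested. Only 22 called genes differed by at least 2-fold, 20 higher and 2 lower, and 193 differed by less than 1.25-fold. The 8 silica lungs lay wholly outside the range of the 4 air lungs for 314 called genes, and for 465 of all genes tested (3.35%), 314 with silica above air (2.26%) and 151 with silica below (1.09%). All 8 silica rats lay above the air mean for 362 of the 372 genes that were higher, and below it for 152 of the 159 that were lower. These genes were called from the same values, so the counts are a description, and the share over all genes was not counted.

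**Figure D1:**
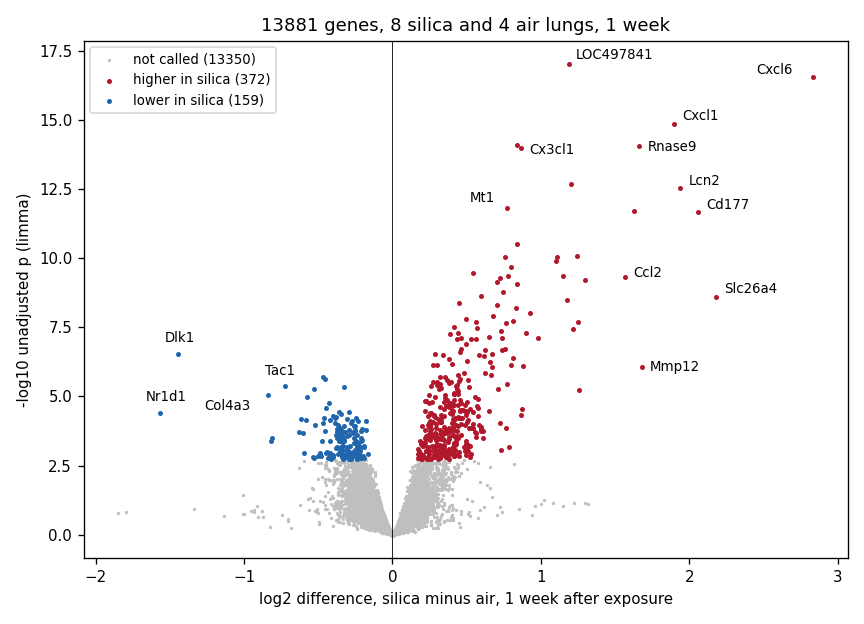
Each point is a gene, placed by its log2 difference between 8 silica and 4 air lungs at 1 week on the x axis and by -log10 of its unadjusted limma p on the y axis. The 372 called genes that were higher, led by Cxcl6 at 2.83, reach farther from 0 than the 159 that were lower, led by Nr1d1 at -1.57.

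The deposited columns formed 8 runs in their order, and air rats lay in 4 of them; neither the labels nor the headers say what a run is. With the run as a block, an alternative chosen after seeing the data, 766 genes were called at 1 week, 514 of them among the 531. Each of those 4 runs held 1 silica and 1 air rat of 1 week, and the silica rat differed from its air rat in the same direction in all 4 for 474 of the 531 called genes (89.3%), against 27.8% of all genes. The called genes were chosen with these same rats, which by itself raises their share, so it is a description. Median raw signal per array was 66.2 to 93.5, and 11460 to 12480 genes were detected per array. Heart muscle and liver transcripts varied between lungs: the mean log2 signal of 13 heart genes was 5.08 to 6.96 in silica rats and 5.79 to 7.49 in air rats, and that of 10 liver genes was 6.20 to 7.49 in silica rats and 6.12 to 6.51 in air rats. Air rat 1 stood nearest to the silica rats, with the 20 largest rises on average 0.41 above the air mean on the log2 scale, where the silica rats were 1.45 to 1.64 above it.

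Promoter sequences are shown for the 3 genes among the largest rises that held the letters of a kB site, to which NF-kB dimers bind, and for the gene with the largest fall, with an E-box, to which the Clock and Bmal1 proteins bind. They are the 250 bases before the start of each gene in RefSeq on rat build GRCr8, written 5′ to 3′ on the gene's strand. Capitals mark GGGANNNTCC on either strand in the first 3 and CACGTG in the last.
Cxcl1 promoter, chr14:17479322-17479571, minus strand: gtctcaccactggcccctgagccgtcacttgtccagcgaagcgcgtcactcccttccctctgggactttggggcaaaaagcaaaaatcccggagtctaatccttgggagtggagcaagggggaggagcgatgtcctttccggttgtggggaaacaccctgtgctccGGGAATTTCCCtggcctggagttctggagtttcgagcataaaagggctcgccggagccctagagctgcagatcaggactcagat
Cxcl6 promoter, chr14:17596418-17596667, minus strand: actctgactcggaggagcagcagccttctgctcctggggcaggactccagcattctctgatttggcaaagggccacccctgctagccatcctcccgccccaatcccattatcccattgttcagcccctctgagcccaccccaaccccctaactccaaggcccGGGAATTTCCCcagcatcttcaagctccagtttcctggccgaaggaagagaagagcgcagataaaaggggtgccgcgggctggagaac
Lcn2 promoter, chr3:36081781-36082030, minus strand: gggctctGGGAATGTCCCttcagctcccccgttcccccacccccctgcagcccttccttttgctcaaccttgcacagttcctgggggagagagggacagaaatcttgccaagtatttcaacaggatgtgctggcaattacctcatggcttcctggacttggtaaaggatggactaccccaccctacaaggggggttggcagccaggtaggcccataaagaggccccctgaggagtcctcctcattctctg
Nr1d1 promoter, chr10:84229455-84229704, minus strand: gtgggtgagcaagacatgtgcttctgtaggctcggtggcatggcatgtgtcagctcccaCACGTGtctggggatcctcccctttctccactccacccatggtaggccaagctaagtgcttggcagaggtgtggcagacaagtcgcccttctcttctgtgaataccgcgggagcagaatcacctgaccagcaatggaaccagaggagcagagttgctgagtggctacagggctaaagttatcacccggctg
In Cxcl1 and Cxcl6 the marked letters read GGGAATTTCCC, which matches on both strands, so that the 2 matches overlap. Of the 20 genes with the largest rises 16 had an entry in the promoter table, and 3 of these, Cxcl1, Cxcl6 and Lcn2, held GGGANNNTCC (18.8%), against 3.38% of all 33469 promoters; those of Slc26a4 and Cd177 did not. The Nr1d1 promoter also held GGGANNNTCC, the only one of 8 matched among the 15 largest falls. CACGTG stood in the 250 bases of 5 of 16 clock genes (31.2%), against 5.59% of all promoters. It also stood in 3 of the 8 matched among the largest falls (37.5%: Nr1d1, Rgs7 and Tac1). Among the largest rises it stood in 2 of the 16 matched (12.5%: Ceacam4 and Mmp12). A match describes these letters and is not evidence of binding.

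The counts in each gene list below stand against 2.68% of all genes tested that were higher and 1.15% that were lower. Of 10 neutrophil chemokine and receptor genes tested, 5 rose and none fell, with a median log2 difference of 0.35 over the 10. Without air rat 3, and in the 4 runs with air with the run as a block, 3 rose. Cxcl6 had log2 signals of 7.53 at the lowest, 7.84 at the median and 8.32 at the highest in silica lungs, against 5.31, 4.95, 4.94 and 4.90 in air lungs. The groups were far apart, and Cxcl6 was detected in all 8 silica lungs but in 1 of 4 air lungs, a log2 difference of 2.83 ± 0.23 (SE, adjusted p = 1.94e-13). Cxcl1, the main rat ligand of the neutrophil receptor Cxcr2, read 11.99, 12.15 and 12.40 in silica lungs, and 10.37, 10.42, 10.25 and 9.98 in air lungs. Every silica lung was thus above every air lung (1.90 ± 0.17, adjusted p = 6.26e-12). Cxcl2, a macrophage product that binds the same receptor, was higher by 1.25 ± 0.19 (adjusted p = 7.6e-06) and Pf4, a platelet and macrophage chemokine, by 0.54 ± 0.12 (adjusted p = 0.00312). Over 27 alternatives the Cxcl2 difference was 0.60 to 1.34. Cxcl3 read 13.06 to 13.54 in silica lungs and 12.90 to 13.26 in air lungs, so the groups overlapped (0.31 ± 0.09, adjusted p = 0.0311).

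Among CC and other chemokines and their receptors 7 of 29 rose and 1 fell, with a median of 0.15. Ccl2, which draws monocytes, had log2 signals of 8.63, 8.91 and 9.43 in silica lungs (lowest, median, highest), against 7.27, 7.51, 7.10 and 7.66 in air lungs. The difference, 1.57 ± 0.21 (adjusted p = 3.24e-07), left a gap between the groups. Ccl3, a macrophage chemokine, was higher by 0.93 ± 0.14 (adjusted p = 4.11e-06). Ccl7, which also draws monocytes, was higher by 0.87 ± 0.20 (adjusted p = 0.00371). Cx3cl1, the membrane-bound chemokine of endothelium and epithelium, read 10.99, 11.26 and 11.40 in silica lungs, and 10.49, 10.41, 10.46 and 10.19 in air lungs. No silica lung overlapped an air lung, and it rose by 0.86 ± 0.08 (adjusted p = 2.31e-11). Ccl5, a T and NK cell product, moved against the rest: it read 12.21 to 12.39 in silica lungs and 12.54 to 12.72 in air lungs, and fell by 0.32 (SE 0.08, adjusted p = 0.00992).

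A minority of the cytokine and NF-kB genes were called. Of 29 interleukin-1, TNF and NF-kB genes 5 rose and none fell, with a median of 0.14, where 2.68% of all genes tested were higher. The count was 2 without air rat 3 and 1 without air rat 4, and also 1 under median scaling. Il1r2, the decoy receptor for interleukin-1, rose by 0.76 ± 0.13 (adjusted p = 4.72e-05) and Il1a, a cytokine released from damaged cells, by 0.38 ± 0.10 (adjusted p = 0.014). Nfkb2, a subunit of NF-kB, rose by 0.24 ± 0.07 (adjusted p = 0.0422). Tnf itself had a difference of 0.14 ± 0.10 (adjusted p = 0.543) and Il1b one of 0.34 ± 0.11 (adjusted p = 0.0562), and neither passed. Zc3h12a, an RNase that degrades cytokine transcripts, was higher by 0.77 ± 0.15 (adjusted p = 0.000517); like Tnf and Il1b, it lay outside the rule for named genes and was picked after its values were seen. Of 17 immediate early genes 4 rose (Egr2, Atf3, Myc and Junb, 0.33 to 0.44) and the median was 0.09 (2 rose without air rat 3 or without air rat 4), and of 27 interferon-stimulated genes none was called, with a median of -0.13. Oasl2, an interferon-induced gene outside that list, fell by 0.34 (SE 0.08, adjusted p = 0.00938).

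Neutrophil markers rose in 4 of 17 cases, with a median of 0.15. Cd177 read 11.19, 11.35 and 11.39 in silica lungs, against 10.22, 8.95, 8.69 and 9.15 in air lungs. The silica lungs lay close together, while air rat 1 stood apart from the other air rats (2.06 ± 0.23, adjusted p = 2.77e-09). Lcn2, lipocalin 2, which binds bacterial siderophores and is made by neutrophils and epithelium, read 9.40, 9.52 and 9.79 in silica lungs, and 7.75, 7.37, 7.47 and 7.92 in air lungs (1.94 ± 0.20, adjusted p = 5.15e-10). Il1r2 and Trem1, a receptor of neutrophils and monocytes, were the other 2. S100a8, an abundant neutrophil transcript, differed by 0.34 ± 0.14 (adjusted p = 0.203). S100a9 was detected in none of the 12 lungs and Mpo, a granule enzyme, in 4 of 8 silica lungs and 0 of 4 air lungs, so that these defining markers were at or near background.

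**Figure D2:**
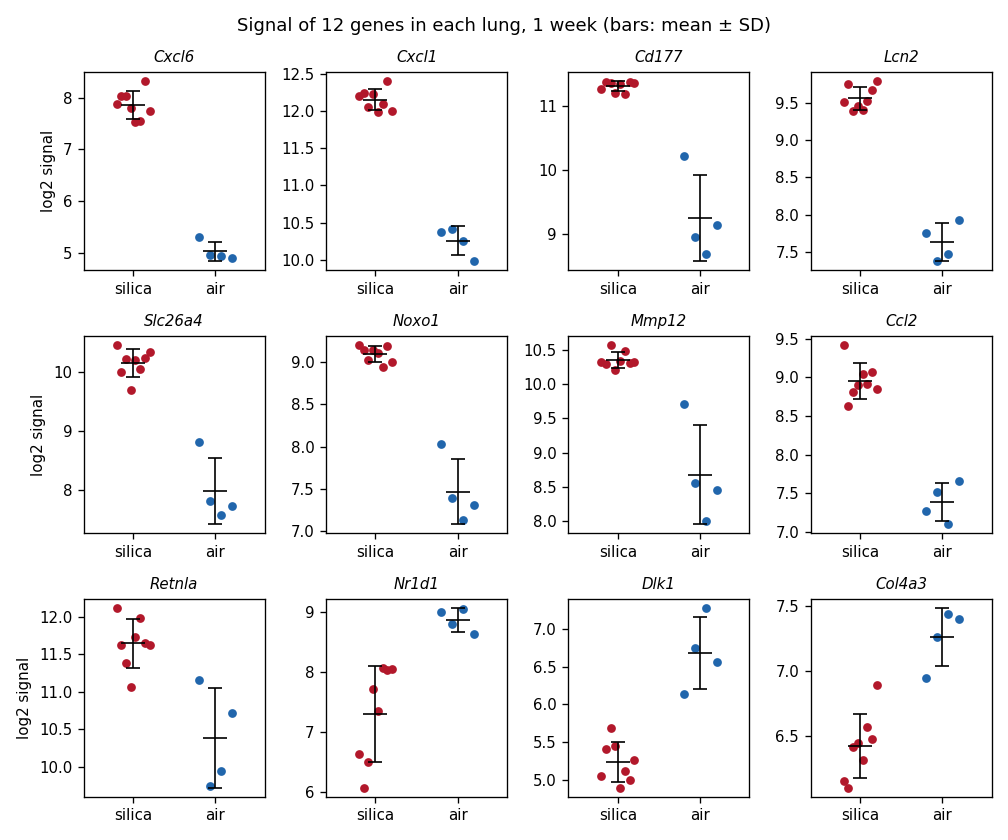
Log2 signal of 12 genes in each of 8 silica lungs (left of each panel) and 4 air lungs (right) at 1 week, with the mean and SD as bars. The silica points lie apart from the air points in 11 panels and overlap in that of Retnla, where air rat 1 at 11.16 stands above the lowest silica rat at 11.07.

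A minority of oxidant-producing and antioxidant genes rose, some by much, where 2.68% of all genes tested were higher. Slc26a4, pendrin, which carries iodide and thiocyanate to the airway surface, read 9.70, 10.22 and 10.47 in silica lungs, against 8.81, 7.81, 7.57 and 7.72 in air lungs (2.18 ± 0.31, adjusted p = 1.24e-06). Noxo1, the organiser subunit of an epithelial NADPH oxidase, read 8.94, 9.13 and 9.21 in silica lungs, and 8.03, 7.40, 7.14 and 7.32 in air lungs. Both had silica values above every air value (Noxo1 1.62 ± 0.18, adjusted p = 2.77e-09). With Cyba, the membrane subunit that NADPH oxidases share (0.32 ± 0.08, adjusted p = 0.00575), 3 of 18 genes of that list rose and none fell, with a median of 0.13. Of 24 antioxidant and metal-binding genes, with a median of 0.05, 3 rose: the mitochondrial superoxide dismutase Sod2 (0.80 ± 0.10, adjusted p = 1.77e-07), the metallothionein Mt1 (0.77 ± 0.08, adjusted p = 2.4e-09) and the peroxiredoxin Prdx5 (0.35 ± 0.09, adjusted p = 0.022). Hmox1 (0.26 ± 0.16, adjusted p = 0.474), Nqo1 (0.14 ± 0.11, adjusted p = 0.611) and Gclc (0.06 ± 0.06, adjusted p = 0.72), targets of the oxidant sensor Nrf2, did not pass; they were chosen after their values were seen.

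Of 24 macrophage markers 11 rose and none fell, with a median of 0.29. Mmp12, macrophage elastase, read 10.21, 10.33 and 10.58 in silica lungs, against 9.71, 8.55, 8.00 and 8.45 in air lungs (1.68 ± 0.30, adjusted p = 0.000161). Air rat 1 was again nearest to the silica lungs, which did not overlap the air lungs. Atp6v0d2, a subunit of the lysosomal proton pump in macrophages, rose by 1.22 ± 0.19 (adjusted p = 1.22e-05), the chitinase-like Chi3l1 by 0.84 ± 0.12 (adjusted p = 2.66e-06) and the endosomal glycoprotein Cd68 by 0.67 ± 0.12 (adjusted p = 0.000297). Of 28 lysosome genes 6 rose and none fell, among them the proteases and hydrolases Ctss and Hexa and the cholesterol carrier Npc2 (0.25 to 0.36). Of 25 cholesterol and lipid genes 5 rose and none fell, led in size by the cholesterol esterifier Soat1 (0.42 ± 0.12, adjusted p = 0.0292) and the cholesterol exporter Abcg1 (0.40 ± 0.07, adjusted p = 0.000135), with the fatty acid receptor Cd36, the lipase Lpl and the lipid droplet protein Plin2 (0.24 to 0.29). The medians of the lysosome and lipid lists were 0.20 and 0.17. Without air rat 3 the macrophage, lysosome and lipid counts were 5, 3 and 1, and under median scaling 3, 1 and 0.

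Called genes of the alternative activation programme mostly rose. Retnla, a secreted protein of alternatively activated macrophages and epithelium, read 11.07, 11.64 and 12.12 in silica lungs, and 11.16, 9.74, 9.94 and 10.72 in air lungs (1.26 ± 0.25, adjusted p = 0.00075). Arg1, arginase, was higher by 0.66 ± 0.12 (adjusted p = 0.000118), as were the chemokine Ccl17 (0.57 ± 0.12) and the lectin Clec10a (0.40 ± 0.08). Alox15, a lipoxygenase of macrophages and eosinophils, read 8.35 to 8.99 in silica lungs and 8.82 to 9.46 in air lungs and fell by 0.61 (SE 0.14, adjusted p = 0.00471), which makes 4 of 12 genes higher and 1 lower, with a median of 0.16. The Alox15 call was lost without air rat 4, and in the 4 runs with air with the run as a block.

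MHC class II molecules present antigen to helper T cells. Of 10 genes in the list of class II chains and genes that act with them, 7 rose and none fell, with a median of 0.36. The 7 were Ciita, RT1-Db1, RT1-DMb, RT1-Ba, Ctss, RT1-DMa and RT1-Da, and Ctss was also counted among the lysosome genes. RT1-DMb, which loads peptide on class II molecules, read 12.11, 12.16 and 12.41 in silica lungs, against 11.96, 11.89, 11.70 and 11.69 in air lungs, with no overlap (0.39 ± 0.06, adjusted p = 1.65e-05). Ciita, the master transcription factor of the class II genes, rose by 0.42 ± 0.12 (adjusted p = 0.0399). Without air rat 3 the class II count was 4, and under median scaling 0. None of 17 MHC class I and antigen processing genes was called, with a median of 0.01. Of 14 NK and cytotoxic cell markers 5 fell and none rose, with a median of -0.26: perforin, Prf1, read 10.76, 10.89 and 11.08 in silica lungs, and 11.15, 11.31, 11.31 and 11.61 in air lungs (-0.46 ± 0.11, adjusted p = 0.00445). The NK receptors Klrb1a and Klrd1, the granzyme Gzmk and Ccl5 fell by 0.31 to 0.36. Cd8a, the co-receptor of cytotoxic T cells, read 9.18 to 9.47 in silica lungs and 9.55 to 9.85 in air lungs (-0.39 ± 0.09, adjusted p = 0.00456), the only call among 17 T cell markers, whose median was -0.15. The NK calls rested on the air rats: without air rat 3 there were 2, and without air rat 4, or under median scaling, there were 0. The Cd8a call was also lost without air rat 4 and under median scaling.

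Of 22 complement genes 7 rose and none fell, with a median of 0.19 (3 rose under median scaling). C1qc, a chain of the macrophage-made C1q, read 9.68, 9.95 and 10.10 in silica lungs, against 9.54, 9.35, 9.42 and 9.28 in air lungs (0.53 ± 0.09, adjusted p = 2.25e-05). C4bpa, which binds C4b and restrains the cascade, was higher by 1.15 ± 0.15 (adjusted p = 3.18e-07). Of 19 iron and acute phase genes, with a median of 0.20, 6 rose, among them Lcn2, haptoglobin, Hp (0.58 ± 0.13, adjusted p = 0.00396), and transferrin, Tf (0.51 ± 0.09, adjusted p = 0.000102). The iron and acute phase count was 3 without air rat 3 and 3 under median scaling. Of the 10 liver genes, with a median of 0.52, 2 rose, fibrinogen gamma, Fgg (0.45 ± 0.09, adjusted p = 0.000382), and hemopexin, Hpx (0.79 ± 0.22, adjusted p = 0.0254), and albumin, Alb, had signals of 5.17 to 8.58 in silica lungs and 5.48 to 6.84 in air lungs (0.94 ± 0.72, adjusted p = 0.607). Silica rats 1 and 8 had the highest liver signal. Without them, an alternative chosen after seeing the data, 5 complement genes rose, 1 fell, and 5 iron and acute phase genes rose. Of the liver genes 1 then rose, and the Hpx call was lost. In all the Hpx call was lost under 9 of 27 alternatives, among them median scaling and the authors' values. Itih1, a heavy chain of a plasma protease inhibitor, was detected in all silica lungs and 3 air lungs and was higher by 1.30 ± 0.17 (adjusted p = 3.61e-07), or by 0.51 with the authors' values.

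Of 16 type II cell genes 4 rose and 1 fell, with a median of 0.23: the mucin Muc1 (0.40 ± 0.12, adjusted p = 0.0354), the cathepsin Ctsh, which processes surfactant protein B (0.37 ± 0.08, adjusted p = 0.00151), the lamellar body proteins Lamp3 and Abca3 (0.32 and 0.24), and, falling, Dlk1. Dlk1 read 4.90, 5.19 and 5.68 in silica lungs, against 6.13, 6.75, 7.28 and 6.56 in air lungs, a fall present in every silica rat (-1.45 ± 0.25, adjusted p = 6.68e-05). It was detected in 7 of 8 silica lungs, and with the authors' values the difference was -0.57 (adjusted p = 0.0167). Surfactant protein genes did not pass: Sftpc differed by 0.04 ± 0.07, Sftpb by 0.07 ± 0.07 and Sftpd by 0.42 ± 0.14 (adjusted p = 0.0768). Without air rat 3 or without air rat 4, 1 type II gene rose, and without air rat 1, 8 rose. Of 13 club, mucous and secretory cell genes 4 rose, Slc26a4, Lcn2, Cldn10 and Pigr, while the median of the list was -0.12. None of 12 ciliated cell markers was called (median -0.13). Of 14 type I cell markers, with a median of -0.11, 1 fell, Col4a3, a basement membrane collagen chain.

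Of 29 collagen and matrix genes in the list none rose and 2 fell, with a median of -0.07: Col1a1 differed by -0.10 ± 0.10 (adjusted p = 0.741) and Col3a1 by -0.01 ± 0.08 (adjusted p = 0.983), while Col4a3 read 6.10, 6.43 and 6.89 in silica lungs, and 6.95, 7.26, 7.44 and 7.40 in air lungs (-0.84 ± 0.17, adjusted p = 0.00106). Col15a1, a collagen of vascular basement membranes, fell by 0.37 (SE 0.10, adjusted p = 0.0141). Fmod, fibromodulin, a collagen-binding matrix protein outside the list that was picked after its values were seen, rose by 0.53 ± 0.13 (adjusted p = 0.00819). Among 24 fibrosis growth factor genes, with a median of -0.05, Ereg, a ligand of the EGF receptor, rose by 0.65 ± 0.14 (adjusted p = 0.00295), Tgfbr1, a TGF-beta receptor, by 0.32 ± 0.09 (adjusted p = 0.0307), and Tgfb2, a TGF-beta ligand, fell by 0.24 (SE 0.06, adjusted p = 0.0202). Over 27 alternatives the Ereg difference was 0.22 to 0.74. The Tgfbr1 call was lost under 9 of the 27 and the Tgfb2 call under 5. Under median scaling, and without air rat 4, 1 gene of the list rose and none fell. Without air rat 2 the list median was 0.01. Spp1, osteopontin, a matrix protein of macrophages, differed by 0.39 ± 0.36 (adjusted p = 0.7). Of 13 fibroblast and smooth muscle markers none was called (median -0.15). Of 20 endothelial markers 2 fell, Tie1 (-0.29 ± 0.06, adjusted p = 0.00307) and Emcn (-0.25 ± 0.07, adjusted p = 0.0308), both endothelial surface proteins, and the median was -0.18. Without air rat 3 there was 1 endothelial call and without air rat 4 there were 0.

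A minority of the division and stress genes were called, where 2.68% of all genes tested were higher and 1.15% lower. Of 30 cell cycle genes 5 rose and none fell, with a median of 0.18: Rrm2, a ribonucleotide reductase subunit, read 7.36, 7.90 and 8.23 in silica lungs, against 7.68, 7.48, 7.05 and 7.25 in air lungs, with overlap (0.50 ± 0.14, adjusted p = 0.0218). Ccnb2, Prc1 and Cdk1, which act in mitosis, were higher by 0.42 to 0.48, and Kif11, a spindle motor, was detected in 1 silica lung and no air lung, so no fold is given (adjusted p = 0.00518). Without air rat 3 no cell cycle gene was called, without air rat 4 there were 2 and without air rat 1 there were 9. With the run as a block 11 rose, and under median scaling 1 did. Of 20 endoplasmic reticulum stress genes 4 rose, the chaperone partners Sdf2l1 and Dnajc3 and the transcription factors Atf3 and Xbp1 (0.22 to 0.46), with a list median of 0.16; without air rat 3, 2 rose. Of 20 glycolysis and hypoxia genes, with a median of 0.01, 2 rose, the myeloid hexokinase Hk3 (0.71 ± 0.14, adjusted p = 0.000704) and the lactate exporter Slc16a3 (0.40 ± 0.09, adjusted p = 0.00208). None of 15 p53 and DNA damage genes, 12 heat shock genes, 24 proteasome subunits or 24 respiratory chain subunits was called, with medians of 0.06, 0.07, 0.03 and -0.00.

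The remaining lists held few or no calls. Of 14 xenobiotic-metabolizing enzymes the carboxylesterase Ces1d rose by 0.18 ± 0.05 (adjusted p = 0.017) and the cytochrome Cyp4b1 fell by 0.30 (SE 0.07, adjusted p = 0.00471), with a median of -0.22. Of 20 matrix proteases and inhibitors Mmp12 and Itih1 rose (median 0.12). Of 12 B cell and plasma cell markers Xbp1 rose (median -0.05), and of 15 glucocorticoid-responsive genes Lcn2 rose and Klf9 fell (median near 0). None of 11 mast cell and eosinophil markers, 6 mesothelial markers, 9 erythroid genes, 6 adipocyte markers or 13 heart genes was called. Their medians were 0.02, 0.04, near 0, 0.03 and -0.70. Outside the lists, the largest rises were those of Rnase9, a ribonuclease A family member (1.66 ± 0.16, adjusted p = 2.31e-11), C2cd4b (1.24 ± 0.15, adjusted p = 8.57e-08), Ceacam4 (1.20 ± 0.12, adjusted p = 4.19e-10), LOC497841 (1.19 ± 0.09, adjusted p = 1.34e-13), Dmkn, a secreted epithelial protein (1.18 ± 0.17, adjusted p = 1.6e-06), Slc13a2, a dicarboxylate transporter (1.11 ± 0.14, adjusted p = 8.57e-08), and Tmem45b (1.10 ± 0.14, adjusted p = 1.06e-07). With the authors' values the differences of Rnase9, Dmkn and Tmem45b were 0.96, 0.38 and 0.43, each still called. Further falls among genes with every silica rat below the air mean were those of LOC317070 (-0.82), Sirpb3 (-0.81), a signal-regulatory protein, and Tac1 (-0.73), the precursor of substance P, whose 8 silica lungs at 5.06 to 5.79 lay below the air lungs at 6.08 to 6.48. Over 27 alternatives the Tac1 difference was -0.77 to -0.25 and kept its call. That of Sirpb3 was -0.99 to -0.27 and lost its call under 3. Rundc3a (-0.60), Tesc (-0.58), a calcium-binding protein, Map4 (-0.58), a microtubule protein, LOC499701 (-0.54), Rgs7 (-0.53), a G protein regulator, LOC503176 (-0.53), LOC684205 (-0.52) and Coro6 (-0.50), a coronin, completed the 15 largest. Ttf1, here the transcription termination factor of RNA polymerase I and not the lung factor Nkx2-1, fell by 0.63 (SE 0.16, adjusted p = 0.00989) and was picked after its values were seen.

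**Figure D3:**
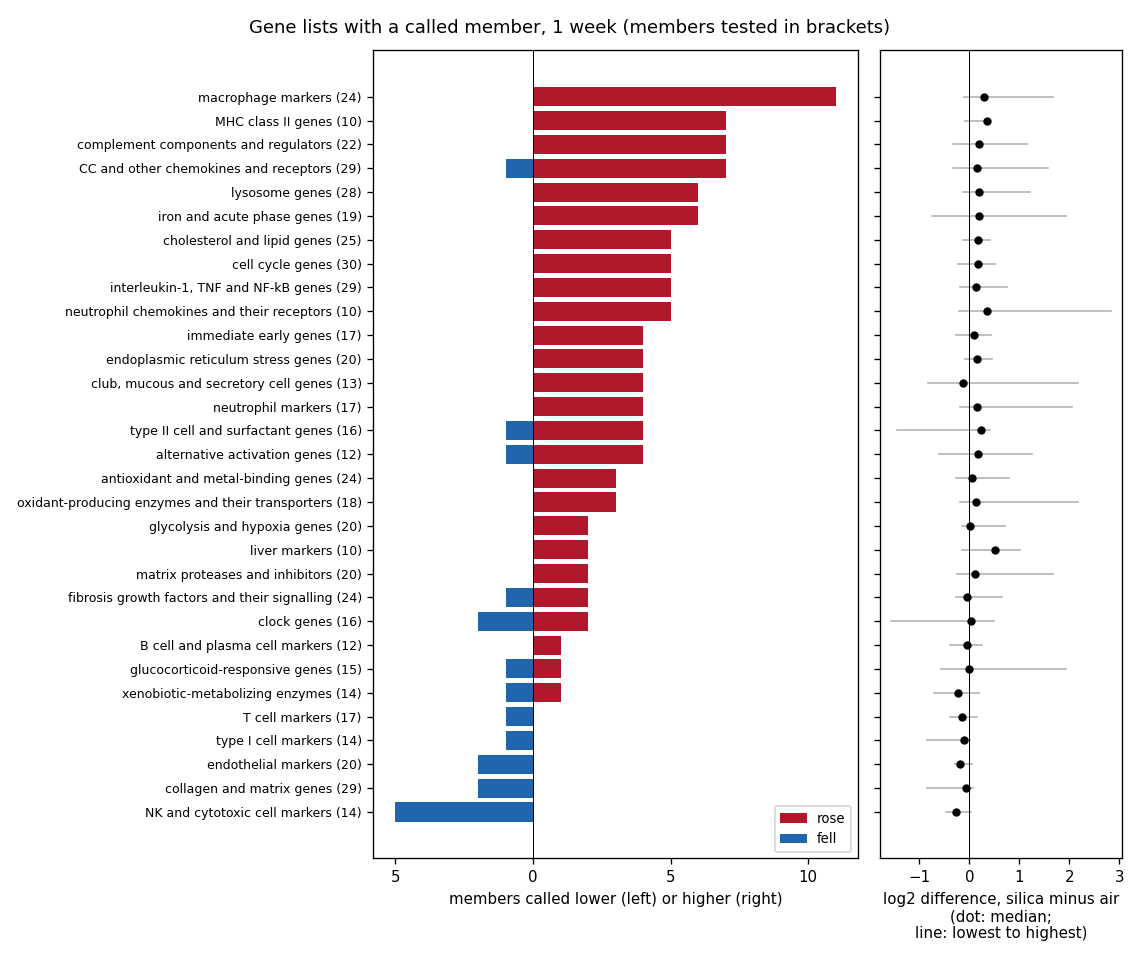
Bars give the number of members called higher (right, red) or lower (left, blue) in silica lungs at 1 week for each gene list with a call, and the right panel gives the median and range of the members' log2 differences. Macrophage markers have 11 members higher, MHC class II genes 7 and complement genes 7, and NK and cytotoxic cell markers have 5 lower.

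Clock genes were both higher and lower. Of 16 tested, Cry1 and Nfil3 rose, Nr1d1 and Tef fell, and the median was 0.04; without air rat 3, 1 rose and 1 fell. Nr1d1 read 6.08, 7.53 and 8.07 in silica lungs, against 9.01, 8.80, 9.06 and 8.63 in air lungs, with a wide spread among silica lungs and no overlap (-1.57 ± 0.35, adjusted p = 0.00325). Cry1, a repressor of the clock, read 9.09, 9.43 and 9.81 in silica lungs, and 9.04, 9.03, 8.72 and 9.03 in air lungs (0.50 ± 0.11, adjusted p = 0.0038). Nfil3, a repressor that acts against Tef at the same sites, was higher by 0.37 ± 0.08 (adjusted p = 0.00209), and Tef, an activator under clock control, was lower (-0.49 ± 0.14, adjusted p = 0.0345). The Tef call was lost under 13 of 27 alternatives. Among these were median scaling, the authors' values and leaving out any single air rat. Bmal1, whose transcription Nr1d1 represses, differed by 0.17 ± 0.09 (adjusted p = 0.377). The hour of killing in each group is not given in the sources used here, and its part in these values was not tested.

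The second question was what set 1 week apart from the later times. Each week had its own air rats, and the 1 week difference was compared with the mean of the 4 later differences in the same fit. No gene passed an adjusted p of 0.05 by limma (0%), with the lowest adjusted p at 0.123, and 1161 genes (8.36%) had an unadjusted p under 0.05. With the run as a block 17 genes passed, 9 of them with a difference above 0. Those with a difference below 0 included Ceacam4 (-0.63 ± 0.12, adjusted p = 0.0269), Tmem45b (-0.67 ± 0.14, adjusted p = 0.0454), Col4a3 (-0.83 ± 0.18, adjusted p = 0.0454) and Ccl7 (-0.95 ± 0.22, adjusted p = 0.0469). In the main fit Ceacam4, Tmem45b and Ccl7 rose at 1 week (1.20, 1.10 and 0.87), so for them it was a smaller rise than later. Col4a3 instead fell at 1 week (-0.84). Which genes lay above 0 is not given here.

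Many genes called at 1 week were called again later. Of the 531 genes, 296 were called at 2 weeks (55.7% of the 1 week genes and 22.7% of the 1303 called at 2 weeks, which were 9.39% of all), and 232 at 4 weeks (43.7%, and 25.2% of the 922 called, 6.64% of all). At 8 weeks 396 were called (74.6%, and 31.9% of 1240, 8.93% of all) and at 16 weeks 431 (81.2%, and 13.7% of 3154, 22.7% of all). All 5 weeks called 175 genes. The genes higher at 1 week had a median log2 difference of 0.32, 0.27, 0.42 and 0.52 at 2, 4, 8 and 16 weeks, and those lower had -0.15, -0.17, -0.26 and -0.32; since they were chosen for their 1 week values, these medians are a description. Of the 531 genes 60 were called at no later week, 25 higher and 35 lower, among them Col4a3, Klf9, Ttf1, Gsta6, a glutathione transferase (-0.45 ± 0.09 at 1 week), and Agt, angiotensinogen (0.46 ± 0.11 at 1 week), the last 2 picked after their values were seen. For none of the 60 did the 1 week difference pass the test against the mean later difference.

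Against single later weeks, 28 genes differed between 1 and 2 weeks (0.202%), 0 between 1 and 4 weeks (0%, with 1377 at an unadjusted p under 0.05), 3 between 1 and 8 weeks (0.0216%) and 191 between 1 and 16 weeks (1.38%). With the run as a block these were 64, 0, 3 and 537, and in the 4 runs with air, with that block, 43, 5, 2 and 347.

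The contrast with 2 weeks was led by clock genes, which had opposite signs. Of the 28 genes 5 were in the clock list, 25 changed sign between the weeks, and 5 were called at both weeks with opposite signs. Nr1d1, lower at 1 week, was higher at 2 weeks: it read 8.71, 9.76 and 10.12 in silica lungs, and 7.44, 7.90, 7.84 and 7.78 in air lungs, with no overlap (1.90 ± 0.35, and -3.47 ± 0.50 for 1 week minus 2 weeks, adjusted p = 1.83e-05). Cry1 had a 2 week difference of -0.75 ± 0.11, and the difference between weeks was 1.25 ± 0.16 (adjusted p = 2.37e-06). Nfil3 (0.84 ± 0.11 between weeks, adjusted p = 5.72e-06), Bmal1 (0.86 ± 0.13, adjusted p = 4.16e-05) and Tef (-1.04 ± 0.20, adjusted p = 0.0051) followed. Both groups lay at other levels in the 2 weeks: Nr1d1 in silica lungs read 6.08 to 8.07 at 1 week and 8.71 to 10.12 at 2 weeks, and in air lungs 8.63 to 9.06 at 1 week and 7.44 to 7.90 at 2 weeks. At 4, 8 and 16 weeks the Nr1d1 difference was -1.68, -1.79 and -1.72, on the same side as at 1 week. Genes outside the clock list that differed included Scd, which desaturates fatty acids (0.28 at 1 week and -0.81 at 2 weeks), Klf9, a glucocorticoid-induced factor (-0.36 and 0.23), and the heat shock partner Dnaja1 (0.18 and -0.40). Cx3cl1 alone among the chemokines differed, with 0.86 at 1 week and 0.37 at 2 weeks (adjusted p = 0.0425 for the difference).

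**Figure D4:**
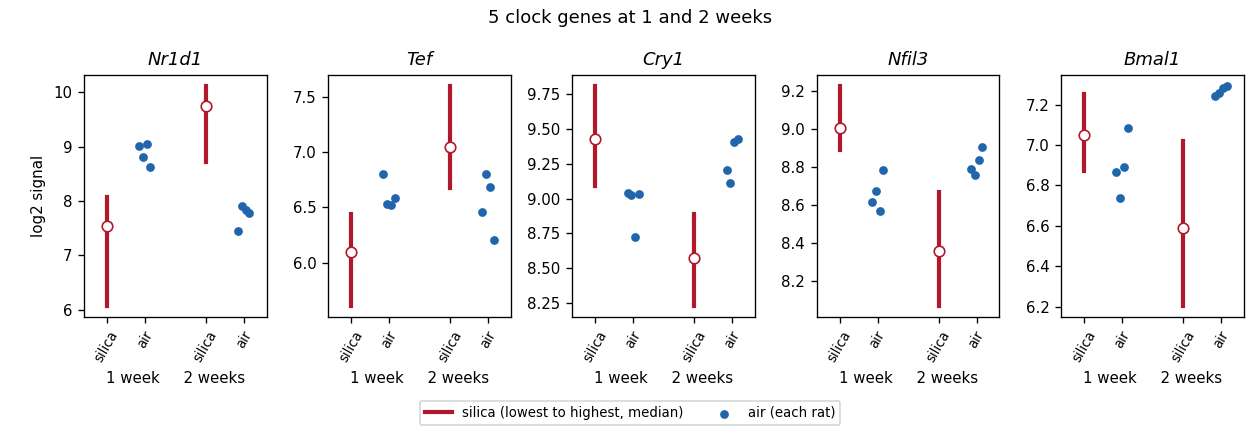
Log2 signal of 5 clock genes at 1 and 2 weeks, silica rats as a bar from lowest to highest with the median as an open circle, and air rats as points. Nr1d1 and Tef are lower in silica than in air lungs at 1 week and higher at 2 weeks, and Cry1 and Nfil3 are the other way round.

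Most genes that differed between 1 and 16 weeks were farther from air at 16 weeks. This held for 182 of the 191. Of the 191, 31 had been called at 1 week. The monocyte chemokines were at 0.87 (Ccl7) and 1.57 (Ccl2) at 1 week, against 3.25 and 3.02 at 16 weeks (adjusted p of the differences 6.36e-08 and 0.0048). Retnla was at 1.26 and 2.86 (adjusted p = 0.00984), Spp1 at 0.39 and 3.29 (adjusted p = 0.00105), S100a8 at 0.34 and 1.48 (adjusted p = 0.000702), and Lpo, lactoperoxidase, which oxidises thiocyanate, at 0.44 and 2.34 (adjusted p = 1.33e-08). Fabp4, a fatty acid carrier of macrophages and fat, was at -0.11 and 1.27 (adjusted p = 0.00277). Spp1, S100a8 and Lpo were picked after their values were seen. Ceacam4 and Tmem45b were at 1.20 and 1.10 at 1 week, against 2.19 and 2.21 at 8 weeks (adjusted p = 0.0055 for both), and Exoc3l1, an exocyst-like gene, was at 0.44 at 1 week and -0.54 at 8 weeks (adjusted p = 0.0496).

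Of the 31 genes called at 1 week, 5 had a smaller difference at 16 weeks. Cxcl1 was at 1.90 ± 0.17 at 1 week, its highest of the 5 weeks, then 1.08, 1.48, 1.41 and 0.89 at 2, 4, 8 and 16 weeks (1.01 ± 0.24 for 1 minus 16 weeks, adjusted p = 0.0183). Its silica lungs ranged over similar values at 1 and 16 weeks, 11.99 to 12.40 and 11.49 to 12.42, while its air lungs were at 9.98 to 10.42 at 1 week and 10.74 to 11.43 at 16 weeks. Cx3cl1 was at 0.86, and then 0.37, 0.54, 0.64 and 0.35 (0.51 ± 0.12 for 1 minus 16 weeks, adjusted p = 0.0121). Its silica lungs read 10.99 to 11.40 at 1 week and 10.83 to 11.34 at 16 weeks, and its air lungs 10.19 to 10.49 and 10.46 to 10.93. Col4a3 was at -0.84, then 0.02, -0.15, -0.20 and 0.30 (-1.14 ± 0.24, adjusted p = 0.0083), and its silica lungs read 6.10 to 6.89 at 1 week and 6.63 to 7.83 at 16 weeks. Oasl2, an interferon-induced gene (-0.34 and 0.17, adjusted p = 0.0152), and Cers6, a ceramide synthase (-0.40 and 0.31, adjusted p = 0.0155), also fell at 1 week and not at 16 weeks. Cxcl2 was at 1.25 at 1 week and at 0.48, 0.92, 1.13 and 0.76 later, but differed from no later week by the test.

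**Figure D5:**
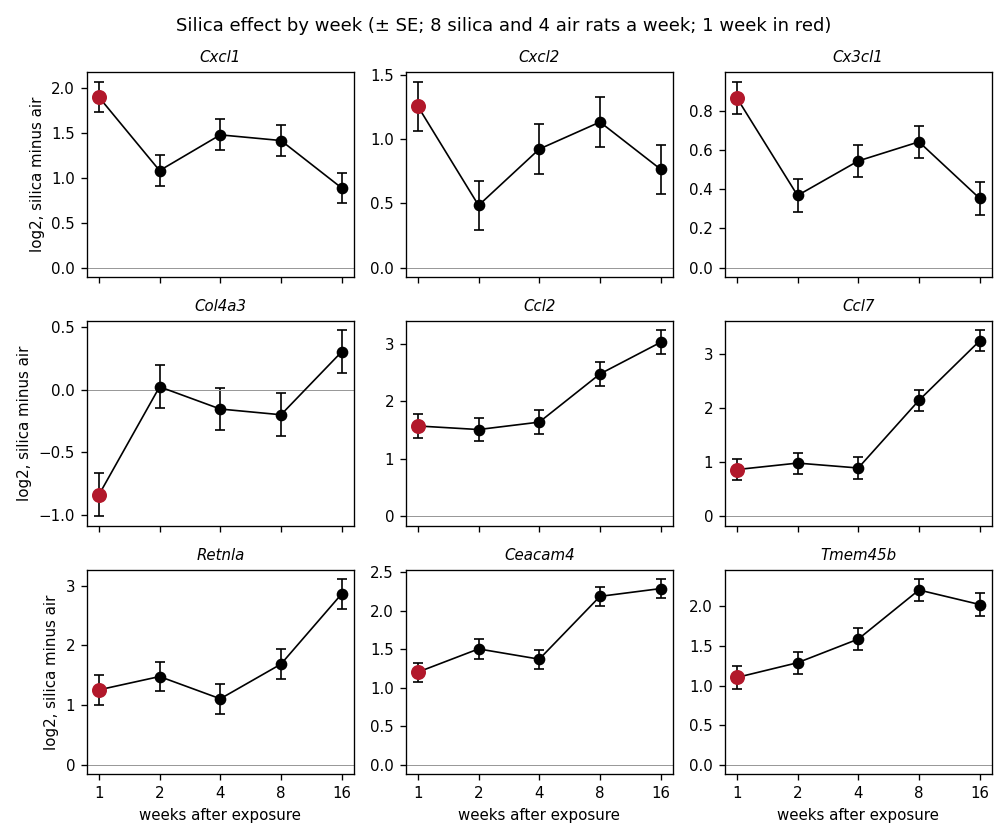
Log2 difference between 8 silica and 4 air lungs (± SE) for 9 genes, with 1 week in red and the x axis giving the 5 times in weeks on a log scale. Cxcl1, Cxcl2 and Cx3cl1 have their highest value at 1 week and Col4a3 its lowest, while Ccl2, Ccl7, Retnla, Ceacam4 and Tmem45b have their highest at 8 or 16 weeks.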

How the data were processed

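Lung RNA of 60 rats was measured on Illumina RatRef BeadChips, 1 array per rat. The submitters' processing notes name BeadStudio, lumi and limma, without versions or settings. The deposited table gave, per the file headers, an average signal intensity and a detection p-value for each gene and array, before normalization. A second deposited table gave the authors' processed log2 values for 12763 genes and was used as an alternative. Its centring is not stated in the sources used here.

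From the intensities, background was corrected by normexp with an offset of 16, the control mean and SD inferred from the detection p-values, and arrays were quantile normalized and put on the log2 scale. One array, of a silica rat at 4 weeks, had its values displaced by 2 lines and was realigned. Genes with a detection p under 0.05 on at least 4 of 60 arrays were kept, with the brightest line of each of 85 symbols with several, which left 13881 genes. Of the 21792 gene lines, 4524 kept the deposited table's own symbol and 117 stayed unnamed, while the rest were named through the RefSeq table. limma 3.58.1 in R 4.3.3 fitted 10 group means over all 60 arrays with 50 residual degrees of freedom, p-values were adjusted by Benjamini-Hochberg over all genes tested, and called means an adjusted p under 0.05. The error beside a log2 difference is the SE of that fit. All tests were two-sided. The number of arrays limits the precision. On simulated data for silica against air at 1 week, 94% of genes changed by a log2 of 0.5 and 98% of those changed by 1 were recovered, and 3.52% of calls were false. For the 1 week effect against the mean later effect these were 92%, 98% and 4.52%. The simulated noise was independent between arrays. In the data, residuals correlated at 0.20 on average between arrays of the same run and at -0.05 between runs. The simulated rates may thus not hold for these arrays.

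Named were the 20 largest rises and 15 largest falls among called genes in which no silica rat crossed the air mean, genes whose effect differed between weeks, and in each of 44 gene lists at most 4 members in order of adjusted p (the 2 brightest if no member was called), with any called against the list's direction. Other list members in the text, such as Ccl7, the surfactant, collagen and Nrf2 genes and the further called members given as ranges, were picked after their values were seen. The lungs and the gene lists were chosen with earlier results of these data known. Alternatives covered background, scaling, filter, symbols with several lines, fit, blocks and leaving out rats.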

Additional observations from a re-analysis of the deposited data

Results flagged for a closer look

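Of 310 groups of rats tested, 15 had a highest or lowest rat set apart from the rest, where chance gives about 5%. The value is that rat's gap to its nearest neighbour as a share of the group's range. Air rat 1 stood apart for Cxcl6 (0.863, highest), LOC497841 (0.906, highest), C5 (0.848, highest), Fgg (0.868, highest) and Prc1 (0.888, highest). Air rat 2 stood apart for Atp5f1b (0.853, lowest). Air rat 3 stood apart for Cry1 (0.97, lowest) and Psmb1 (0.831, lowest). Air rat 4 stood apart for Il1a (0.857, lowest) and Ifitm3 (0.843, highest). Among silica rats the same was seen for LOC497841 in silica rat 8 (0.613, lowest), Rgs7 in silica rat 6 (0.648, highest), Coro6 in silica rat 1 (0.654, lowest), Amigo2 in silica rat 2 (0.631, highest) and Procr in silica rat 2 (0.528, highest).

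The difference between the silica effects of 1 week and a later week, 1 week minus later on the log2 scale, passed an adjusted p of 0.05 by limma for the genes given here. Against 2 weeks it was above 0 for Cry1 (1.25), Nfil3 (0.836), Bmal1 (0.862), Irs3 (0.553), Scd (1.09), Dnaja1 (0.584), Dusp11 (0.402), Mkks (0.713), Kdf1 (0.34), Procr (0.606), Vezt (0.382), Gchfr (0.386), Prxl2a (0.35), Apip (0.438), Hgd (0.662), Zfp133 (0.409), Dnajb1 (0.399), Amigo2 (0.727), Cx3cl1 (0.497) and Igf2bp3 (0.36). It was below 0 against 2 weeks for Nr1d1 (-3.47), Marchf7 (-1.22), Rgs7 (-0.773), Tef (-1.04), RGD1311300 (-0.605), Gpcpd1 (-0.488), Klf9 (-0.587) and Coro1a (-0.386). Against 8 weeks it was above 0 for Exoc3l1 (0.982). It was below 0 against 8 weeks for Ceacam4 (-0.982) and Tmem45b (-1.1). Against 16 weeks it was above 0 for Cx3cl1 (0.512) and Cxcl1 (1.01). It was below 0 against 16 weeks for Ceacam4 (-1.08), Fabp4 (-1.38), Slc16a3 (-0.631), Ccl2 (-1.45), Col4a3 (-1.14), Tmem45b (-0.92), Il1r2 (-0.823), Mt1 (-0.559), Retnla (-1.6), Oasl2 (-0.51), Cers6 (-0.714) and Chi3l1 (-0.72). Of the 191 genes that differed from 16 weeks, those chosen by the rule for named genes are given here.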

How the results depend on the processing

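Under quantile-free median scaling 141 genes were called at 1 week, 109 higher and 32 lower, and 9 and 42 differed from 2 and 16 weeks; no MHC class II, NK or lipid gene was then called. With the authors' values 37 genes passed the stricter rule, and with array weights 240 were lower and 17 differed from 2 weeks. An adjusted p under 0.01 left 269 genes, 220 higher and 49 lower, with 12 and 48 differing from 2 and 16 weeks. Against the mean later effect 6 genes were called without week 2 and 5 without week 4. With the run as a block 255 genes were lower, 17 differed from the mean later effect, 64 from 2 weeks and 537 from 16 weeks. In the 4 runs with air, with the run as a block, these were 15, 43 and 347, and 5 differed from 4 weeks. Leaving out each rat of 1 week in turn gave 227 (without air rat 3) to 629 (without air rat 1) called genes, 181 to 423 higher, 39 to 206 lower, 56 to 100 by the stricter rule, 0 to 1 against the mean later effect, 15 to 39 against 2 weeks, 0 to 0 against 4 weeks, 0 to 4 against 8 weeks and 103 to 242 against 16 weeks. Same-numbered silica and air rats had correlated deviations above 0.1 in 1 of 4 pairs, so the numbers were not taken to pair the rats; with the replicate block 623 genes were called, 487 of them among the 531. Apart from the settings above, the number of genes called at 1 week stayed within 1.5 times of 531. Of the values of named genes under these settings, 5672 kept their direction and stayed either called or uncalled. These include genes called under neither setting, so 5672 is not a count of calls that held. The call was lost for 407 values and gained for 40. A further 57 changed sign while uncalled under both settings, and no called value did. The falls of LOC503176, LOC499701 and Coro6 lost the call under median scaling and with the authors' values. The causes were not tested. A block for slide or scan date was not run, since neither is given in the sources used here.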
